A study of Mus musculus with 25 samples.

Results

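Interleukins are secreted signals by which leukocytes, epithelial cells and fibroblasts communicate, and they were followed here through 84 of the 24984 genes in the count table, namely every gene whose symbol begins with Il and a digit. By role the 84 genes comprise 36 ligands, 39 receptor chains, 6 inhibitors (soluble antagonists, binding proteins and decoy receptors) and 3 genes that share the prefix without being interleukins or receptors: Il4i1, Il4i1b and Il1bos. RNA was sequenced from BMEL cells, a line of bipotential progenitors isolated from embryonic mouse liver (C57B/6_C3H), in 3 cultures per population: BMEL WT, which the labels give as empty vector, and RasLOW and RasHIGH, both of them populations transduced with H-Ras G12V and sorted for low or high expression of the oncogene. The other 16 libraries came from 4 athymic nude mice, Crl:NU(NCr)-Foxn1nu, in which BMEL-Ras cells had formed a tumour in the liver and a tumour in the peritoneum. From each tumour, cells positive for the green fluorescent reporter were sorted as tumour cells and the remaining cells as stromal cells, giving 4 libraries in each of 4 groups. The labels do not say which Ras population each mouse received. All cultured and tumour cells descend from 1 cell line, and nude mice lack a thymus and therefore most T cells, which limits both as models.

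Most interleukins act over short distances through receptors built from a specific chain and a shared chain: Il1rap for IL-1, IL-33 and IL-36, Il2rg (the common gamma chain) for IL-2, IL-4, IL-7, IL-9, IL-15 and IL-21, Il6st (gp130) for IL-6, IL-11 and IL-27, and Il10rb for IL-10 and IL-22. IL-1 family receptors signal through Myd88 and the Irak kinases, and most of the others through Jak kinases and Stat factors. In liver, IL-6 family cytokines drive the acute phase response and regeneration, IL-22 acts on epithelial cells, IL-33 is stored in nuclei as an alarm signal, and IL-1 is made largely by myeloid cells and held in check by the antagonist Il1rn and the decoy receptor Il1r2.

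Depth ran from 20818989 to 51241336 counts per library. Levels are given as CPM, counts scaled to a library total of 1000000, and 3 counts corresponded to between 0.0585 and 0.144 CPM, which covers counting error only. The mouse Hras row was not higher in Ras cells (80.0 to 94.3 CPM in BMEL WT, 52.7 to 101 in RasLOW and 52.9 to 83.1 in RasHIGH), so it gives no check of the labels. Of 4 epithelial markers, Krt8, Krt18 and Krt19 were abundant in cultured and tumour cells, whereas Epcam did not exceed 0.889 CPM there. Epcam went the other way from the keratins, with 82 to 212 counts in each stromal library and 0 to 5 in each tumour cell library. The summed level of the 4 markers, nearly all of it keratin, was 7316 to 10456 CPM in tumour cells and 498 to 1261 CPM in stromal cells. The 4 leukocyte markers summed to 1771 to 3414 CPM in stromal cells and to 4.21 to 11.8 CPM in 7 of the 8 tumour cell libraries. The exception was the peritoneal tumour cell library of mouse 1, at 54.3 CPM, so values that move with it are also given without it. The peritoneal stromal library of the same mouse also stood apart, with 2466 CPM over 4 neutrophil markers against 172 to 186 CPM in the other 3 peritoneal stromal libraries.

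Interleukin genes were sparse in BMEL cells and numerous in stroma. Of the 84 genes, 53 reached a mean of 1 CPM in at least 1 of the 7 groups and 31 did not, among them the T cell cytokines Il2, Il4, Il5, Il13, Il17a, Il17f, Il21 and Il22. Il1f5, Il11ra2 and Il9 had no count in any library. In the cultured groups 21 genes reached 1 CPM, and 22 genes reached it in stromal cells but in no cultured or tumour cell group. Scaled to the length of annotated exons, so that genes can be compared, the leading ligand in BMEL WT was Il33 at a mean of 85.1 CPM per kb, followed at a distance by Il18 at 2.27 and Il15 at 1.36 CPM per kb. The leading receptor chains there were Il22ra1, the specific chain of the IL-22 receptor, at 23.9 CPM per kb, Il4ra at 12.1 and Il6st at 11.0 CPM per kb. In liver stromal cells the leading ligands were Il1b at 2042, Il1a at 284 and Il6 at 69.5 CPM per kb, with the decoy receptor Il1r2 at 423 and the antagonist Il1rn at 268 CPM per kb. Il1b, Il1a, Il6 and Il33 also led in this order in peritoneal stromal cells, at 1151, 155, 88.8 and 80.5 CPM per kb.

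**Figure D1:**
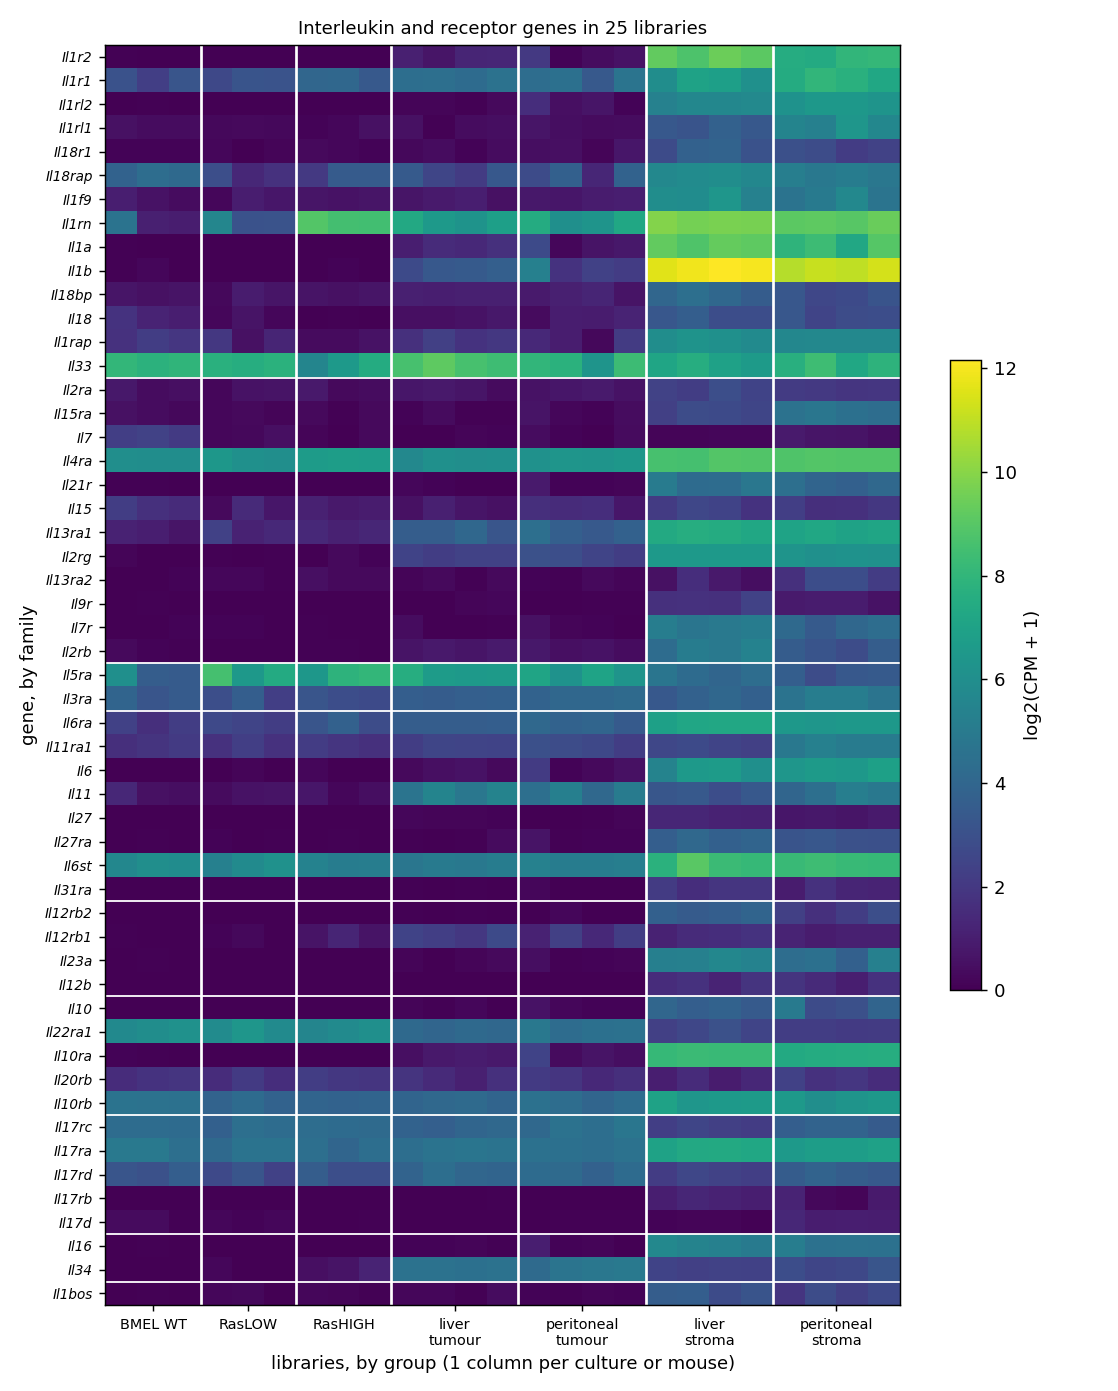
Levels of the 53 interleukin genes with a mean of at least 1 CPM in some group, as log2(CPM + 1), in 25 libraries (columns, by group) and genes (rows, by family). By group mean, Il1b, Il1rn, Il1r2 and Il1a are the brightest rows in liver stroma, and Il1b, Il1rn and Il4ra in peritoneal stroma. Il33 is bright in all 7 groups, and Il1rn brightens from BMEL WT to RasHIGH.

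The cultured populations were compared to ask which interleukin genes differ with the dose of oncogenic Ras. Against BMEL WT, RasHIGH cells had more of the IL-1 antagonist Il1rn and of the receptor chain Il12rb1 and less of the ligands Il7 and Il18 and of the shared receptor chain Il1rap. RasLOW cells had less Il7, Il18 and Il18rap, a chain of the IL-18 receptor, and no interleukin gene was called higher in them. Calls in culture required a log2 fold change beyond 1.5 in either direction and p under 0.01 before adjustment, by the quasi-likelihood test of edgeR. In RasLOW, 0 of the 25 interleukin genes tested were called higher and 3 lower, where 0.861% and 3.54% of all genes tested were called in these directions. In RasHIGH, 2 of 26 were called higher and 3 lower, where 3.62% and 6.03% of all genes were. Between RasHIGH and RasLOW, 2 of 24 were called higher in RasHIGH and 0 lower, where 1.23% and 0.886% of all genes were. The median log2 fold change of the interleukin genes tested was -0.11 for RasLOW over BMEL WT, -0.13 for RasHIGH over BMEL WT and 0.00380 between the Ras populations, beside 0.0113, -0.024 and -0.026 over all genes tested. Both comparisons with BMEL WT use the same 3 control libraries. For the 2 counts of 0, the test gave an unadjusted p under 0.05 for 1 gene higher in RasLOW (Il5ra) and for 2 genes lower in RasHIGH than in RasLOW (Il6st and Il1rap), and DESeq2 called 1 gene in each case (Il5ra and Il1rap).

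Among ligands, Il7, a growth factor of lymphocytes made mainly by stromal and epithelial cells, was at 3.74, 4.36 and 3.24 CPM in BMEL WT, at 0.177, 0.184 and 0.429 CPM in RasLOW and at 0.119, 0 and 0.240 CPM in RasHIGH. Every Ras library lay far below every BMEL WT library, and the 2 Ras groups overlapped. Il7 fell by 3.83 on the log2 scale in RasLOW (SE 0.47, adjusted p = 0.00804, edgeR) and by 4.94 in RasHIGH (SE 0.67, adjusted p = 0.00308, edgeR). In RasHIGH it rested on 8 counts in 3 libraries against 296 in BMEL WT, a ratio of 32.5 with a 95% counting interval of 16.3 to 75.9. Il18, an IL-1 family cytokine known for inducing interferon gamma in NK cells, was at 2.41, 1.34 and 1.04 CPM in BMEL WT, at 0.177, 0.551 and 0.172 CPM in RasLOW, and at 0, 0.0447 and 0 CPM in RasHIGH. The 3 groups did not overlap, and RasHIGH held a single count against 126 in BMEL WT, a ratio of 111 with a counting interval of 19.5 to 4404. Il18 fell by 6.34 in RasHIGH (SE 0.85, adjusted p = 0.00291, edgeR). In RasLOW its log2 fold change was -2.40 (SE 0.61, unadjusted p = 0.00496, adjusted p = 0.0665, edgeR), and that call ended in 4 of 6 fits that each left out 1 library.

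Il33 was the ligand with the highest level in all 3 cultured groups, and its lower level in RasHIGH did not pass the threshold. It was at 261, 225 and 247 CPM in BMEL WT, 211, 190 and 220 CPM in RasLOW and 45.0, 90.3 and 181 CPM in RasHIGH. All 3 RasHIGH libraries lay below the others, but they differed by several-fold among themselves, and the log2 fold change against BMEL WT was -1.20 (SE 0.45, adjusted p = 0.0999, edgeR). Il15, which sustains NK cells, was at 3.63, 2.27 and 1.87 CPM in BMEL WT and at 0.760 to 1.19 CPM in RasHIGH, a log2 fold change of -1.43 (SE 0.38, adjusted p = 0.0356, edgeR) that missed the fold threshold. Il34, a second ligand of the macrophage receptor Csf1r, had no count in BMEL WT, 0.142, 0 and 0 CPM in RasLOW and 0.396, 0.581 and 1.34 CPM in RasHIGH. It was too low to be tested, and the mean in RasHIGH was at least 6.22-fold above the level of 3 counts in 1 BMEL WT library.

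Receptor chains moved in both directions. Il1rap, the chain shared by IL-1, IL-33 and IL-36 receptors, was at 2.37, 3.61 and 2.82 CPM in BMEL WT, at 2.91, 0.478 and 1.42 CPM in RasLOW and at 0.277, 0.268 and 0.528 CPM in RasHIGH. RasHIGH lay below BMEL WT in every library, RasLOW overlapped both, and Il1rap fell by 3.02 in RasHIGH against BMEL WT (SE 0.39, adjusted p = 0.00268, edgeR). Il1r1, the IL-1 receptor chain that pairs with it, was not lower: it was at 7.41, 3.80 and 8.35 CPM in BMEL WT and at 15.3, 15.9 and 9.46 CPM in RasHIGH, a log2 fold change of 1.07 (SE 0.35, adjusted p = 0.0653, edgeR). Il18rap was at 13.1, 19.0 and 17.0 CPM in BMEL WT, at 6.52, 1.54 and 2.32 CPM in RasLOW and at 3.09, 10.2 and 10.2 CPM in RasHIGH. Both Ras groups lay below BMEL WT. The log2 fold change was -2.20 in RasLOW (SE 0.54, unadjusted p = 0.00398, adjusted p = 0.0592, edgeR) and -1.04 in RasHIGH (SE 0.44, adjusted p = 0.138, edgeR), and leaving out BMEL WT replicate 2 or 3 or RasLOW replicate 3 ended the RasLOW call. Its partner chain Il18r1 did not exceed 0.238 CPM in any cultured library.

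Il12rb1, the chain shared by the receptors of IL-12 and IL-23, was near the limit of detection in culture. It was at 0.0371, 0 and 0 CPM in BMEL WT, at 0.0709, 0.184 and 0 CPM in RasLOW and at 0.555, 1.39 and 0.576 CPM in RasHIGH, with RasHIGH above both other groups in every library. The log2 fold change was 5.57 against BMEL WT (SE 0.92, adjusted p = 0.00645, edgeR) and 3.21 against RasLOW (SE 0.86, unadjusted p = 0.00691, adjusted p = 0.236, edgeR). It rested on 57 counts against 1 in BMEL WT, a ratio of 64.9 with a counting interval of 11.2 to 2609. The partner chains Il12rb2 and Il23r had no count in any cultured library. Other receptor chains lay apart in all RasHIGH and all BMEL WT libraries without being called. Il6ra, the specific chain of the IL-6 receptor, was at 4.15, 2.09 and 3.61 CPM in BMEL WT and at 8.21, 12.6 and 6.05 CPM in RasHIGH (log2 1.46, SE 0.38, adjusted p = 0.0327, edgeR), just under the fold threshold. Il4ra went from 62.0 ± 1.06 to 104 ± 2.67 CPM (log2 0.76, SE 0.11, adjusted p = 0.00387, edgeR), while Il6st went from 57.3 ± 7.32 to 36.3 ± 4.03 CPM and Il10rb from 22.7 ± 0.771 to 13.8 ± 0.501 CPM (SD, n = 3).

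Il5ra, the specific chain of the IL-5 receptor and best known on eosinophils, was the receptor chain with the highest level per kb of exon in both Ras groups, at 65.1 CPM per kb in RasLOW and 58.6 CPM per kb in RasHIGH, and the fourth in BMEL WT at 8.82 CPM per kb. It was at 66.0, 11.0 and 10.2 CPM in BMEL WT, at 384, 88.9 and 171 CPM in RasLOW and at 85.9, 233 and 261 CPM in RasHIGH. Every Ras library lay above every BMEL WT library, although BMEL WT replicate 1 came close to the lowest of them. The log2 fold change was 2.89 in RasLOW (SE 0.89, unadjusted p = 0.0127, adjusted p = 0.110, edgeR) and 2.72 in RasHIGH (SE 0.83, unadjusted p = 0.0132, adjusted p = 0.0559, edgeR), so neither passed. Il5ra was singled out after its values were seen, and it passed in both comparisons under DESeq2 and in the fit of all 25 libraries. The chain that pairs with it, Csf2rb, did not exceed 0.149 CPM in any cultured library.

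The inhibitor Il1rn, the secreted antagonist that occupies the IL-1 receptor without signalling, rose by more CPM than any other interleukin gene in RasHIGH. It was at 23.5, 1.08 and 0.955 CPM in BMEL WT, at 46.2, 7.38 and 7.77 CPM in RasLOW and at 486, 372 and 352 CPM in RasHIGH. RasHIGH stood above every other cultured library, whereas RasLOW and BMEL WT overlapped because replicate 1 of each was high. Against BMEL WT the log2 fold change was 5.54 (SE 1.27, adjusted p = 0.0210, edgeR), and without BMEL WT replicate 1 it was 8.66. Against RasLOW it was 4.27 (SE 0.81, unadjusted p = 0.00104, adjusted p = 0.119, edgeR), and 5.77 without RasLOW replicate 1. In RasHIGH cells Il1rn reached 126 CPM per kb, above every other interleukin gene there, Il33 being at 36.7 CPM per kb. The cytokines it opposes were close to absent: Il1a did not exceed 0.0371 CPM and Il1b 0.149 CPM in any cultured library.

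**Figure D2:**
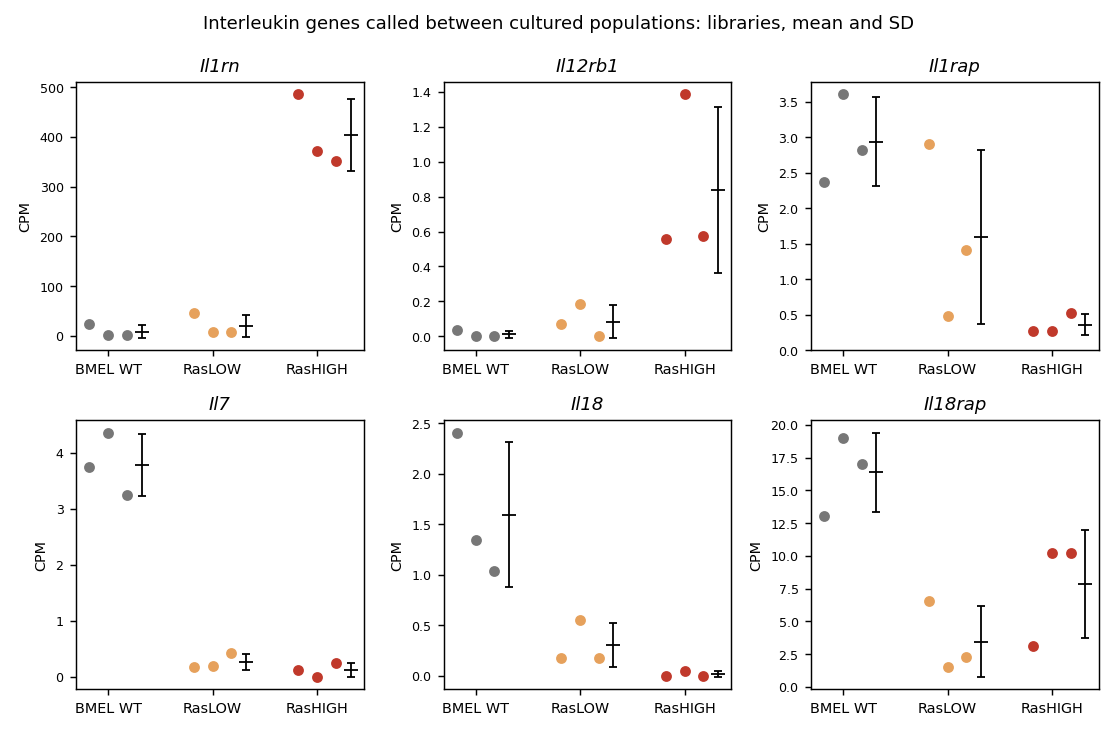
CPM of the 6 interleukin genes called between cultured populations, on linear axes with a scale for each gene. Points are libraries, bars are means and whiskers SDs (n = 3). Il1rn and Il12rb1 are highest in RasHIGH, where Il1rn lies between 352 and 486 CPM, while Il7 and Il18 are highest in BMEL WT.

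The promoters of Il1rn, Il5ra and Il11 are shown from 11 interleukin genes that were looked up after their values were seen. All RasHIGH libraries (Il1rn), all Ras libraries (Il5ra) or all tumour cell libraries (Il11) lay above BMEL WT. Other genes with all tumour cell libraries above BMEL WT, such as Il13ra1 and Il17rd, were not looked up. AP-1, the Fos and Jun factor through which Ras and MAPK signalling is known to act, has a short recognition motif. The letters TGANTCA, which read the same on both strands apart from the central base, were present in 7.81% of 32851 promoter windows of mouse genes, each running from 250 bases before to 50 bases after a RefSeq start (GRCm38.p6). Of 11 interleukin genes looked up, 8 had 12 windows, and 4 windows held the letters: 1 each of Il1rn, Il5ra, Il11 and Il22ra1. Il22ra1, which is not printed, was lower in tumour cells than in culture. The kappaB motif, searched on both strands in the same way, was in 3 of the 12 windows and in 20.7% of all windows. Below are the 250 bases before the start, 5′ to 3′ on the strand of the gene, with the AP-1 letters in capitals. They begin at position -141 for the first start of Il1rn, at -99 for Il5ra and at -98 for the second start of Il11. Neither the second start of Il1rn nor Il18, shown for contrast as the gene that fell furthest in RasHIGH, holds them. Start 3 of Il1rn and start 1 of Il11, which are not printed, do not hold them either. Whether the letters go with the changes was not tested. A match describes the letters and does not show that a factor is bound, and the counts do not tell the starts of a gene apart.
Il1rn, start 1, chr2:24336610-24336859, plus strand: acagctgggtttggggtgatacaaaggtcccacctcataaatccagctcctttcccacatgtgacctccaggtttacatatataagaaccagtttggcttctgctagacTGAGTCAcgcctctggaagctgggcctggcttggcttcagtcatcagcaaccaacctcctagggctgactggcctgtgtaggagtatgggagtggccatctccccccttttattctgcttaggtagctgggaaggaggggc
Il1rn, start 2, chr2:24345041-24345290, plus strand: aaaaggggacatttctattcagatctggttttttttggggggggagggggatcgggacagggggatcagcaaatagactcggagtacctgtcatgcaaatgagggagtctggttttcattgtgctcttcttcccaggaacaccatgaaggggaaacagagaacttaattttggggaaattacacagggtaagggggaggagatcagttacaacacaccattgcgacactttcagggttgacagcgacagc
Il5ra, chr6:106749038-106749287, minus strand: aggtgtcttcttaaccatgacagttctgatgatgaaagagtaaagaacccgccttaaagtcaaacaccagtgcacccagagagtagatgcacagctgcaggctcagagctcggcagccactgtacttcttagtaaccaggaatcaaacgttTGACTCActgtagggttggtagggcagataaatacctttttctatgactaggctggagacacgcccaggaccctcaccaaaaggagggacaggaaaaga
Il11, start 2, chr7:4778142-4778391, minus strand: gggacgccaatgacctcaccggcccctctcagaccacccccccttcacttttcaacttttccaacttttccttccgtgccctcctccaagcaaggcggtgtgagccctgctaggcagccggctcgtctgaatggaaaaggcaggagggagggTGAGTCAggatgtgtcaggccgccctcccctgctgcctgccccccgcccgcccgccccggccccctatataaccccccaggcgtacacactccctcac
Il18, chr9:50554450-50554699, plus strand: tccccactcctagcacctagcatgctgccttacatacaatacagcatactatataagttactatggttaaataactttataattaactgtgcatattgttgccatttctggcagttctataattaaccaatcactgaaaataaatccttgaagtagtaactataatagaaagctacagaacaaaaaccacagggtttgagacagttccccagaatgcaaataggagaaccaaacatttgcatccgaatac

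Lane 3 held BMEL WT libraries 1 and 2, and lane 4 the other 7 cultured libraries. Within lane 4, where BMEL WT is a single library assumed to vary like the Ras groups, the log2 fold changes in RasHIGH were 8.76 for Il1rn, -5.65 for Il18, -4.67 for Il7 and -2.92 for Il1rap, and all 4 passed. In RasLOW Il7 passed at -3.56, while Il18 at -1.73 (unadjusted p = 0.130, edgeR) and Il18rap at -2.21 (unadjusted p = 0.0333, edgeR) did not. The counts of genes called moved with single libraries. In RasLOW against BMEL WT the 3 calls became 1 without BMEL WT replicate 2 or RasLOW replicate 3 and 5 without RasLOW replicate 2. In RasHIGH against BMEL WT the 5 calls became 8 without BMEL WT replicate 1 or RasHIGH replicate 3 and 9 without RasHIGH replicate 1. Between the Ras populations the 2 calls became 1, Il1rn, without RasLOW replicate 3 or RasHIGH replicate 2.

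Of 37 other genes of interleukin signalling (Jak kinases, Stat factors, Socs inhibitors, IL-1 receptor adaptors and related cytokines and chains), 27 were tested in culture. In RasLOW 0 were called, while 2 higher (Socs1 and Socs3) and 4 lower had an unadjusted p under 0.05, and DESeq2 called 0 higher and 2 lower, Osmr among them. In RasHIGH 2 were called higher and 1 lower. Sigirr, an inhibitory receptor of the IL-1 family, rose from 3.19 to 30.3 CPM (log2 3.28, SE 0.43, adjusted p = 0.00275, edgeR), and Socs2, a feedback inhibitor of Jak and Stat signalling, from 7.36 to 49.6 CPM (log2 2.74, SE 0.66, adjusted p = 0.0257, edgeR). Between RasHIGH and RasLOW only Socs2 was called higher by edgeR, at a log2 fold change of 2.04 (SE 0.38, unadjusted p = 0.00103, adjusted p = 0.119, edgeR). In that comparison 0 were lower, also at an unadjusted p under 0.05 and by DESeq2.

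Sorted tumour cells were set against the stromal cells of the same tumours to ask which compartment carries each interleukin gene. Calls in sorted cells required a log2 fold change beyond 1 in either direction and p under 0.05 before adjustment. In liver tumours 42 of the 53 interleukin genes tested were lower in tumour cells and 8 higher, where 27.6% and 16.5% of all genes tested were called. In peritoneal tumours 43 of 53 were lower and 4 higher, where 27.5% and 16.3% of all genes were. The median log2 fold change was -4.57 in the liver and -3.87 in the peritoneum, beside 0.00360 and 0.0699 over all genes tested. Every called gene also had an adjusted p under 0.05. In bulk RNA, fewer cells of a type and less RNA per cell cannot be told apart.

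The genes that were lower came from every interleukin family except, in the liver, that of IL-3 and IL-5. All 12 genes of the common gamma chain and IL-13 group tested in the liver were lower in tumour cells, as were 13 of 14 of the IL-1 family. Il1b, the main secreted IL-1, was at 3091, 3843, 4586 and 4058 CPM in liver stromal cells and at 5.75, 9.07, 9.96 and 11.8 CPM in the tumour cells of the same tumours. Il1a and the decoy receptor Il1r2 followed the same pattern, with means of 560 ± 75.6 and 565 ± 101 CPM in liver stroma against 1.68 ± 0.482 and 1.16 ± 0.393 CPM in tumour cells (SD, n = 4). The log2 fold changes were -8.81 for Il1b (SE 0.27, adjusted p = 6.54e-11, edgeR), -8.48 for Il1a (SE 0.23) and -9.02 for Il1r2 (SE 0.27). Similar differences were found for the IL-10 receptor chain Il10ra (-8.79, SE 0.19), the IL-23 subunit Il23a (-8.35, SE 0.25), the lymphocyte attractant Il16 (-8.95, SE 0.24), the IL-36 receptor Il1rl2 (-8.46, SE 0.21), the IL-12 receptor chain Il12rb2 (-8.37, SE 0.33) and Il21r (-8.36, SE 0.42). Il12b, the subunit shared by IL-12 and IL-23, was at 1.88, 2.32, 1.34 and 2.51 CPM in liver stroma and had no count in liver tumour cells, which makes it at least 20.8-fold lower against the level of 3 counts per library.

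In the peritoneum the same comparison gave -7.62 for Il1b (SE 1.09, adjusted p = 2.28e-04, edgeR), -7.96 for Il1r2 (SE 0.93), -7.58 for Il1a (SE 1.10), -7.41 for Il23a (SE 0.59), -7.11 for Il10ra (SE 0.88), -6.81 for Il1rl2 (SE 0.62), -6.71 for Il7r (SE 0.63) and -6.70 for Il6 (SE 0.89). Il1b was at 38.0, 2.49, 4.14 and 3.47 CPM in the 4 peritoneal tumour cell libraries, the first being the library of mouse 1 with the most leukocyte markers, and without it the log2 fold change was -9.54 (SE 0.29, adjusted p = 2.14e-08, edgeR). Without that library the value was -9.79 for Il1r2 (SE 0.41), -9.53 for Il1a (SE 0.62), -8.93 for Il10ra (SE 0.20), -8.77 for Il6 (SE 0.33), -8.28 for Il23a (SE 0.58), -7.90 for Il7r (SE 0.48) and -7.82 for Il1rl2 (SE 0.35), so all 8 differences were larger and kept their direction. The IL-33 receptor Il1rl1 was at 43.9, 38.8, 84.0 and 48.4 CPM in peritoneal stroma and at 0.273 to 0.637 CPM in tumour cells, a log2 fold change of -7.19 (SE 0.39, adjusted p = 1.46e-06, edgeR).

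Set against the stroma of the same tumour, the tumour cell level ranged from a fraction of a percent to several times the stromal level. In the liver, tumour cells had 0.186% to 0.290% of the Il1b level of their own stroma, 0.141% to 0.279% for Il1r2, 0.136% to 0.309% for Il10ra and 0.139% to 0.297% for Il16. The pan-leukocyte gene Ptprc was at 0.197% to 0.281% and the macrophage receptor Csf1r at 0.270% to 0.500% in the same 4 pairs. Medians were counted over the 48 interleukin genes above 1 CPM in every liver stromal library, so genes lower in stroma are left out. Of these, 15 had a median under 1%, from 0 for Il12b and 0.152% for Il7r to 0.475% for Il6 and 0.698% for Il31ra. Another 14 lay between 1% and 10%, 11 between 10% and 100% and 8 above 100%. Of 46 genes above 1 CPM in every peritoneal stromal library the numbers were 13, 12, 15 and 6. Il12rb1, at 0.908 CPM in peritoneal stromal library 2, was not among the 46. Higher percentages were found for Il1rn, at 8.69% to 16.5% of the liver stromal level, Il4ra at 12.6% to 17.4% and Il6st at 5.85% to 12.1%. In the tumour cells of peritoneal mouse 1, Ptprc was at 2.27%, Il1b at 2.10%, Il1r2 at 1.68% and Il10ra at 2.67%. The part of carried-over leukocyte RNA in these values was not tested.

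**Figure D3:**
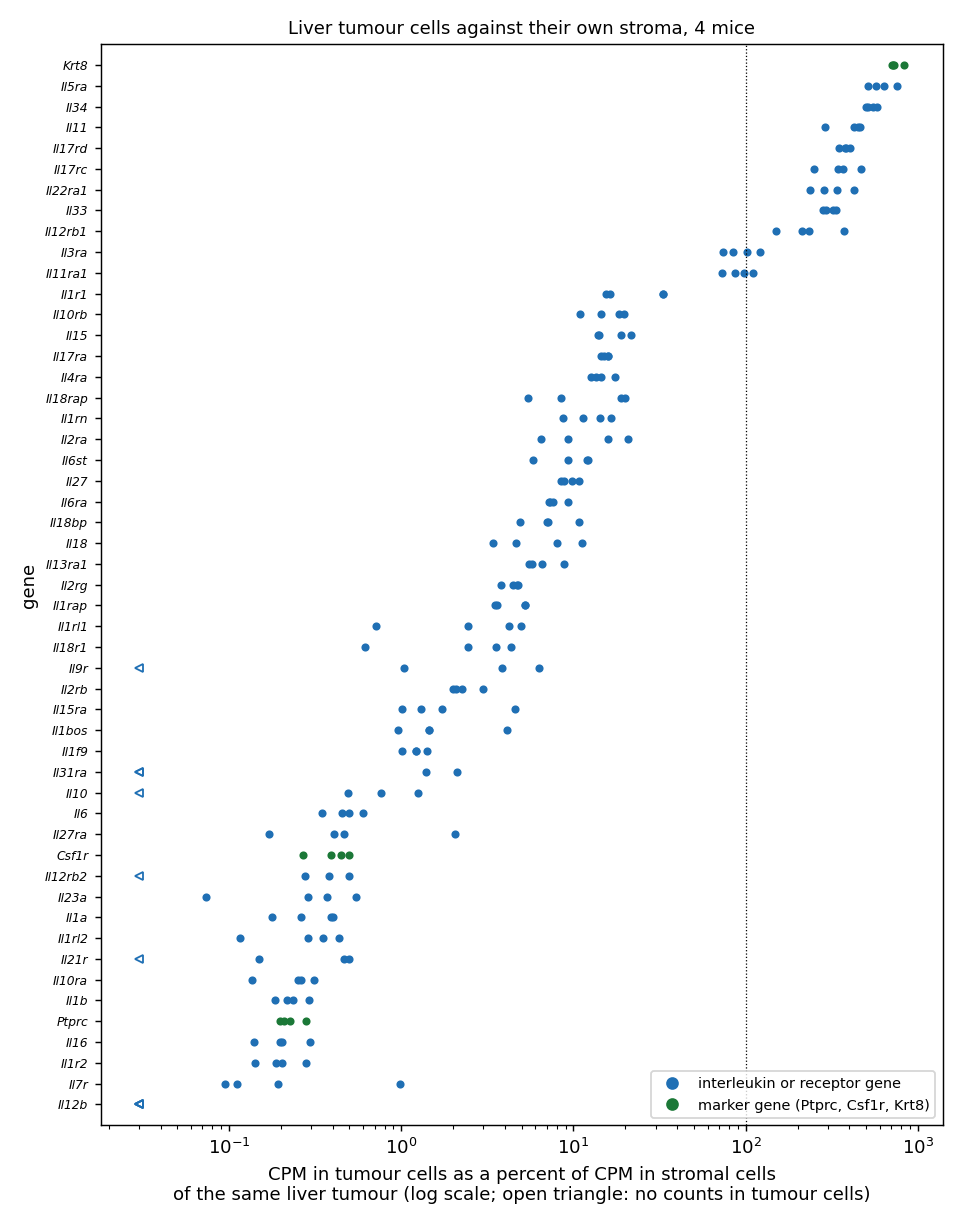
CPM in liver tumour cells as a percent of CPM in the stromal cells of the same tumour, on a log axis, with 1 point for each of 4 mice. Shown are 3 marker genes and the 48 interleukin genes above 1 CPM in every liver stromal library. Il1b, Il1r2, Il10ra and Il16 lie beside Ptprc near 0.2%, while 8 genes, from Il12rb1 to Il5ra, lie above the dotted line at 100%.

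Against this background, 3 ligands and 5 receptor chains were higher in liver tumour cells than in their stroma, and Il34, Il5ra, Il22ra1 and Il12rb1 were called higher in both tumours. These 8 genes were described in full after their values were seen. Among ligands, Il33 was at 399, 561, 390 and 331 CPM in liver tumour cells and at 142, 191, 122 and 99.4 CPM in liver stroma, without overlap (log2 1.53, SE 0.19, adjusted p = 1.53e-05, edgeR). In the peritoneum it was at 258, 220, 77.3 and 324 CPM in tumour cells and at 204, 337, 153 and 231 CPM in stroma, where the groups overlapped (log2 -0.18, SE 0.40, adjusted p = 0.695, edgeR). Il11, a gp130 cytokine of epithelial and fibroblast origin, was at 24.4, 43.3, 27.4 and 42.5 CPM in liver tumour cells and at 8.50, 9.58, 6.43 and 9.21 CPM in liver stroma (log2 1.95, SE 0.20, adjusted p = 2.56e-06, edgeR). Peritoneal tumour cells, at 21.0, 37.3, 16.2 and 32.3 CPM, overlapped peritoneal stroma, at 14.5, 20.8, 35.9 and 28.6 CPM. Il34 was at 23.2, 22.7, 21.7 and 23.0 CPM in liver tumour cells against 4.51, 3.93, 4.36 and 4.18 CPM in stroma (log2 2.34, SE 0.11, adjusted p = 2.54e-09, edgeR). It was at 17.3, 24.5, 27.1 and 29.4 CPM in peritoneal tumour cells against 6.35, 4.80, 5.26 and 8.31 CPM (log2 1.88, SE 0.23, adjusted p = 8.29e-05, edgeR).

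Among receptor chains, Il5ra, whose promoter is shown above, was at 192, 102, 92.7 and 99.4 CPM in liver tumour cells and at 25.5, 17.8, 14.6 and 19.4 CPM in liver stroma. Peritoneal tumour cells had 137, 72.7, 133 and 78.0 CPM and peritoneal stroma 11.4, 6.01, 9.20 and 10.1 CPM. Neither pair overlapped, and the log2 fold changes were 2.56 (SE 0.24, adjusted p = 1.16e-06, edgeR) and 3.41 (SE 0.30, adjusted p = 1.40e-05, edgeR). Il22ra1 was at 14.5 to 16.7 CPM in liver and 18.9 to 28.3 CPM in peritoneal tumour cells, against 3.18 to 7.06 CPM over the 8 stromal libraries (log2 1.55, SE 0.18, and 2.62, SE 0.15). Its partner Il10rb went the other way, from 15.4 ± 1.56 CPM in liver tumour cells to 101 ± 20.3 CPM in their stroma (SD, n = 4), and its ligand Il22 did not exceed 0.477 CPM in any library. Of the IL-17 receptor chains, Il17rc (14.0 ± 1.83 against 4.01 ± 0.578 CPM) and Il17rd (15.6 ± 2.96 against 4.13 ± 0.642 CPM) were higher in liver tumour cells, and Il17ra (23.2 ± 2.20 against 152 ± 18.1 CPM) was lower. In the peritoneum Il17rc (log2 0.71, SE 0.17, adjusted p = 0.00421, edgeR) and Il17rd (log2 0.45, SE 0.15, adjusted p = 0.0191, edgeR) were also higher in tumour cells, under the fold threshold. Il12rb1 was at 4.51, 3.86, 2.95 and 5.60 CPM in liver tumour cells and at 1.21, 1.82, 1.97 and 2.40 CPM in liver stroma (log2 1.11, SE 0.26, adjusted p = 0.00205, edgeR). It overlapped in the peritoneum (log2 1.11, SE 0.40, adjusted p = 0.0308, edgeR), where RLE normalization (0.97), DESeq2 (0.98), the mouse as a block (0.97) and leaving out tumour library 2 or 4 or stromal library 2 (0.79, 0.83 and 1.02) ended the call. In the liver, leaving out tumour library 4 or stromal library 1 took it to 0.96 and 0.94.

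The stromal level of these 8 genes can be read beside that of Krt8, a keratin of the tumour cells. In liver stroma Krt8 was at 12.0% to 14.2% of the level in the matching tumour cells and in peritoneal stroma at 5.36% to 9.93%. Il5ra was at 13.3% to 19.5% in the liver and 6.92% to 12.9% in the peritoneum, ranges that overlapped those of Krt8, and Il34 at 17.3% to 20.0% and 19.4% to 36.7%. In liver stroma the other 6 genes lay further above Krt8, with Il11 at 21.6% to 34.8%, Il17rc at 21.3% to 40.3%, Il22ra1 at 23.4% to 42.2%, Il17rd at 24.8% to 28.7%, Il12rb1 at 26.9% to 67.0% and Il33 at 30.0% to 35.7%. In peritoneal stroma Il22ra1 was at 12.6% to 19.4%, Il12rb1 at 23.3% to 105%, Il17rc at 38.3% to 69.0%, Il17rd at 53.3% to 85.8%, Il11 at 55.7% to 221% and Il33 at 71.4% to 198%. The part of tumour cell RNA in the stromal values was not tested.

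**Figure D4:**
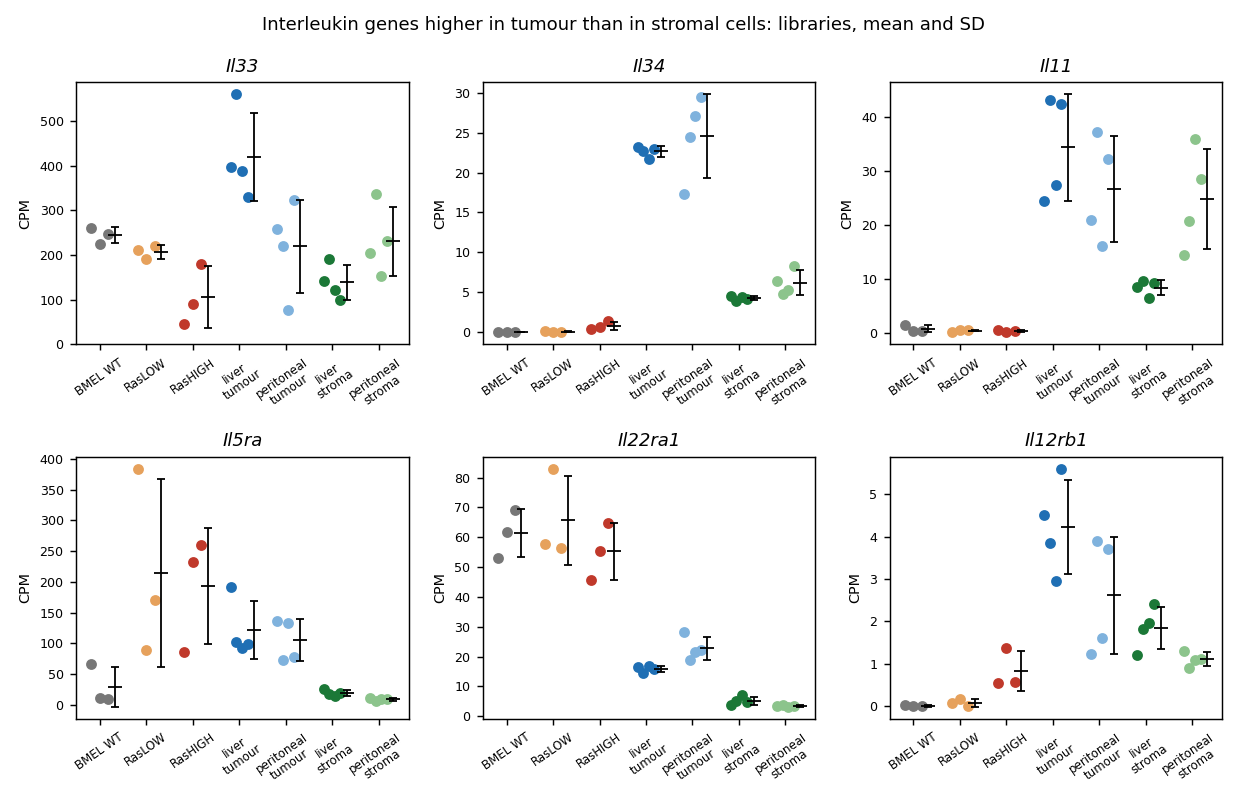
CPM of 6 interleukin genes higher in tumour cells than in stroma, in all 7 groups, on linear axes with a scale for each gene. Points are libraries, bars means and whiskers SDs (n = 3 cultures or 4 mice). Il34 and Il11 are near 0 in culture and at 16.2 to 43.3 CPM in tumour cells, and Il22ra1 is higher in culture than in tumour cells.

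Tumour cells were also set beside the cultured populations. In 11 of the 84 genes (13.1%) all 8 tumour cell libraries lay above all 9 cultured libraries, as they did in 6.44% of all genes in the table, and in 1 gene, Il22ra1, they lay below them, as in 7.05% of all genes. The 11 were Il11, Il34, Il13ra1, Il17rd, Il1a, Il1b, Il1r2, Il1rl2, Il10ra, Il2rg and Il2rb. The 4 leukocyte markers summed to 0.159 to 0.447 CPM in culture and to 4.21 to 54.3 CPM in tumour cells, and their part in these values was not tested. Il11 did not exceed 1.56 CPM in culture and was at 16.2 to 43.3 CPM in tumour cells, and Il34 did not exceed 1.34 CPM in culture and was at 17.3 to 29.4 CPM. Il22ra1 was at 45.7 to 83.0 CPM in culture and at 14.5 to 28.3 CPM in tumour cells. Il1rn in tumour cells, at 65.6 to 176 CPM, lay between BMEL WT or RasLOW (0.955 to 46.2 CPM) and RasHIGH (352 to 486 CPM) in every library. No test was made, since the injected population is not in the labels and culture, sorting and lane differ together.

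Of the 37 signalling genes, 25 were lower and 5 higher in liver tumour cells than in stroma, and 24 and 3 in the peritoneum. Csf2rb, the chain shared by IL-3, IL-5 and GM-CSF receptors, was at 4.36 CPM in liver tumour cells against 1792 CPM in stroma (log2 -8.77, SE 0.20, adjusted p = 8.35e-12, edgeR). The inflammasome sensor Nlrp3 was at 4.84 against 733 CPM and the adaptor Myd88 at 13.6 against 190 CPM. Sigirr was at 41.3 to 46.7 CPM in liver and 51.4 to 69.4 CPM in peritoneal tumour cells and at 5.40 to 10.5 CPM over the stromal libraries.

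Tumour cells of the liver and the peritoneum were compared to ask whether the site changes what the tumour cells express. Of 36 interleukin genes tested, 0 were called higher and 1 lower in the liver, where 1.15% and 2.37% of all genes tested were called, so the share of interleukin genes was near that of all genes. The median log2 fold change was -0.21 beside -0.0054 over all genes. Il15 was at 0.460, 1.07, 0.617 and 0.451 CPM in liver and at 2.14, 1.78, 2.03 and 0.679 CPM in peritoneal tumour cells. The groups overlapped at peritoneal mouse 4, and the log2 fold change was -1.30 (SE 0.43, unadjusted p = 0.0125, adjusted p = 0.128, edgeR). At an unadjusted p under 0.05 stood 1 gene higher in the liver, Il33 (log2 0.99, SE 0.35, adjusted p = 0.147, edgeR), and 5 lower (Il15, Il17rc, Il22ra1, Il3ra and Il4ra). DESeq2 called 0 higher and 2 lower, Il15 and Il1rl2. The mouse as a block called Il33 higher and Il15 lower. Without peritoneal tumour cell library 1 there were 6 calls, Il33, Il1a, Il1b and Il1r2 higher and Il15 and Il18 lower in the liver. The fit of all 25 libraries also gave 6 calls, of which only Il15 was among these. With peritoneal library 1 left out, the 4 leukocyte markers summed to 6.32 to 11.8 CPM in liver and 4.21 to 5.89 CPM in peritoneal tumour cells. Their part in the Il1a, Il1b and Il1r2 values was not tested. Leaving out another library gave 3 calls without liver library 1 or 4, 2 without liver library 2 or 3 or peritoneal library 2, and 4 without peritoneal library 4. With lane as a term Il15 was at -1.26 and remained the single call. Of the 37 signalling genes only Osmr, the oncostatin M receptor, was called, and lower in the liver (0.138 to 0.648 against 0.906 to 4.05 CPM, log2 -2.20, SE 0.61, adjusted p = 0.0793, edgeR), while 4 higher genes had an unadjusted p under 0.05 and DESeq2 called 0 higher. Without peritoneal tumour cell library 1, which held the 4.05 CPM, Osmr was at -1.51 (SE 0.47, adjusted p = 0.0799, edgeR). The 4 fibroblast markers summed to 31.1 to 45.3 CPM in liver and 167 to 1180 CPM in peritoneal tumour cells, and their part in the Osmr value was not tested.

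Stromal cells of the same tumours were compared by site in the same way. Of 57 interleukin genes tested, 5 were called higher in liver than in peritoneal stroma and 12 lower, where 3.86% and 10.4% of all genes tested were called, and all 17 had an adjusted p under 0.05. The median log2 fold change was 0.36, beside 0.018 over all genes tested, and 37 of the 57 had a positive value, although 12 of the 17 calls were negative. Receptors made up 12 of the 17 called and 34 of the 57 tested, with the decoy chain Il13ra2 counted among them. The chains Il12rb2, Il9r and Il2rb were higher in the liver, and Il11ra1, Il1rl1, Il13ra2, Il15ra, Il17rc, Il17rd, Il3ra, Il1r1 and Il20rb were lower. The ligands Il17d, Il11 and Il7 were lower, and the inhibitors Il1r2 and Il18bp higher.

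Among ligands, Il17d, an IL-17 family member made outside the lymphoid lineage, was at 0.0991, 0.140, 0.127 and 0.0370 CPM in liver stroma and at 1.58, 0.951, 1.01 and 0.947 CPM in peritoneal stroma (log2 -3.52, SE 0.40, adjusted p = 1.56e-04, edgeR). The liver values rest on 4, 4, 4 and 1 counts, near the floor, so the size of this change is uncertain. Il11 was at 8.43 ± 1.41 against 24.9 ± 9.29 CPM (SD, n = 4, log2 -1.69, SE 0.27, adjusted p = 0.00106, edgeR). Its receptor chain Il11ra1 was at 5.08, 5.54, 4.71 and 3.99 CPM in liver stroma and at 28.0, 38.3, 32.9 and 32.6 CPM in peritoneal stroma, far apart in all 8 libraries (log2 -2.88, SE 0.13, adjusted p = 1.38e-06, edgeR). The IL-13 decoy chain Il13ra2 (0.892 ± 0.734 against 4.60 ± 2.08 CPM, log2 -2.51, SE 0.54) was lower in the liver too, without overlap. The 4 fibroblast markers, Col1a1, Col3a1, Dcn and Pdgfra, summed to 2770 to 5771 CPM in liver and 39389 to 56931 CPM in peritoneal stroma, with none at 0, and the part of fibroblast number in these genes was not tested.

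Il1rl1, the IL-33 receptor found on mast cells among others, was at 9.22, 7.90, 12.6 and 9.13 CPM in liver stroma and at 43.9, 38.8, 84.0 and 48.4 CPM in peritoneal stroma (log2 -2.59, SE 0.27, adjusted p = 8.38e-05, edgeR). The 4 mast cell markers summed to 14.0 to 19.6 CPM and 139 to 535 CPM in the same groups, and the peritoneal library of mouse 3 was the highest for both. Peritoneal mouse 1, at 279 CPM of the markers, had less Il1rl1 than mouse 4, at 142 CPM. The part of mast cell number in Il1rl1 was not tested. The ligand Il33 was not called, at 139 ± 38.9 against 231 ± 77.5 CPM (log2 -0.86, SE 0.24, adjusted p = 0.0218, edgeR). Il15ra, which presents IL-15 to neighbouring cells, was at 4.02, 6.14, 5.54 and 4.92 CPM in liver and at 23.4, 26.3, 21.6 and 19.5 CPM in peritoneal stroma (log2 -2.26, SE 0.15, adjusted p = 6.01e-06, edgeR), while Il15 itself did not differ beyond its spread (3.77 ± 1.16 and 2.74 ± 0.741 CPM). The IL-17 receptor chains Il17rc (4.01 ± 0.578 against 12.2 ± 1.71 CPM, log2 -1.73, SE 0.15) and Il17rd (4.13 ± 0.642 against 11.2 ± 1.63 CPM, log2 -1.55, SE 0.15) were lower in the liver.

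In the other direction, Il2rb, the chain shared by the receptors of IL-2 and IL-15 and abundant on NK cells, was at 18.5, 33.8, 29.6 and 40.3 CPM in liver stroma and at 10.8, 8.04, 5.99 and 11.1 CPM in peritoneal stroma (log2 1.65, SE 0.25, adjusted p = 9.26e-04, edgeR). Il12rb2, through which NK and T cells respond to IL-12, was at 11.9 ± 1.64 against 4.07 ± 1.80 CPM (log2 1.43, SE 0.28, adjusted p = 0.00387, edgeR). The 4 NK cell markers summed to 23.7 to 43.3 CPM in liver and 6.85 to 13.5 CPM in peritoneal stroma. The 3 T cell markers counted went the other way with some overlap, at 10.9 to 17.7 CPM in liver and 17.3 to 33.7 CPM in peritoneal stroma. The part of either cell type in Il2rb and Il12rb2 was not tested. Il9r was at 2.21, 2.35, 2.23 and 4.21 CPM against 0.859, 0.908, 0.886 and 0.526 CPM (log2 1.67, SE 0.31, adjusted p = 0.00278, edgeR). The decoy receptor Il1r2 was at 599, 440, 679 and 543 CPM in liver and 182, 174, 253 and 278 CPM in peritoneal stroma (log2 1.23, SE 0.20, adjusted p = 0.00112, edgeR), and the IL-18 binding protein Il18bp at 15.6 ± 4.22 against 6.90 ± 1.85 CPM (log2 1.06, SE 0.23, adjusted p = 0.00616, edgeR). Below the fold threshold, Il1b (3895 ± 620 against 2195 ± 354 CPM, log2 0.71, SE 0.16, adjusted p = 0.00654, edgeR), Il10ra and Il6ra were also higher in every liver library than in any peritoneal one, as were the 4 leukocyte markers, at 2956 to 3414 against 1771 to 2155 CPM.

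**Figure D5:**
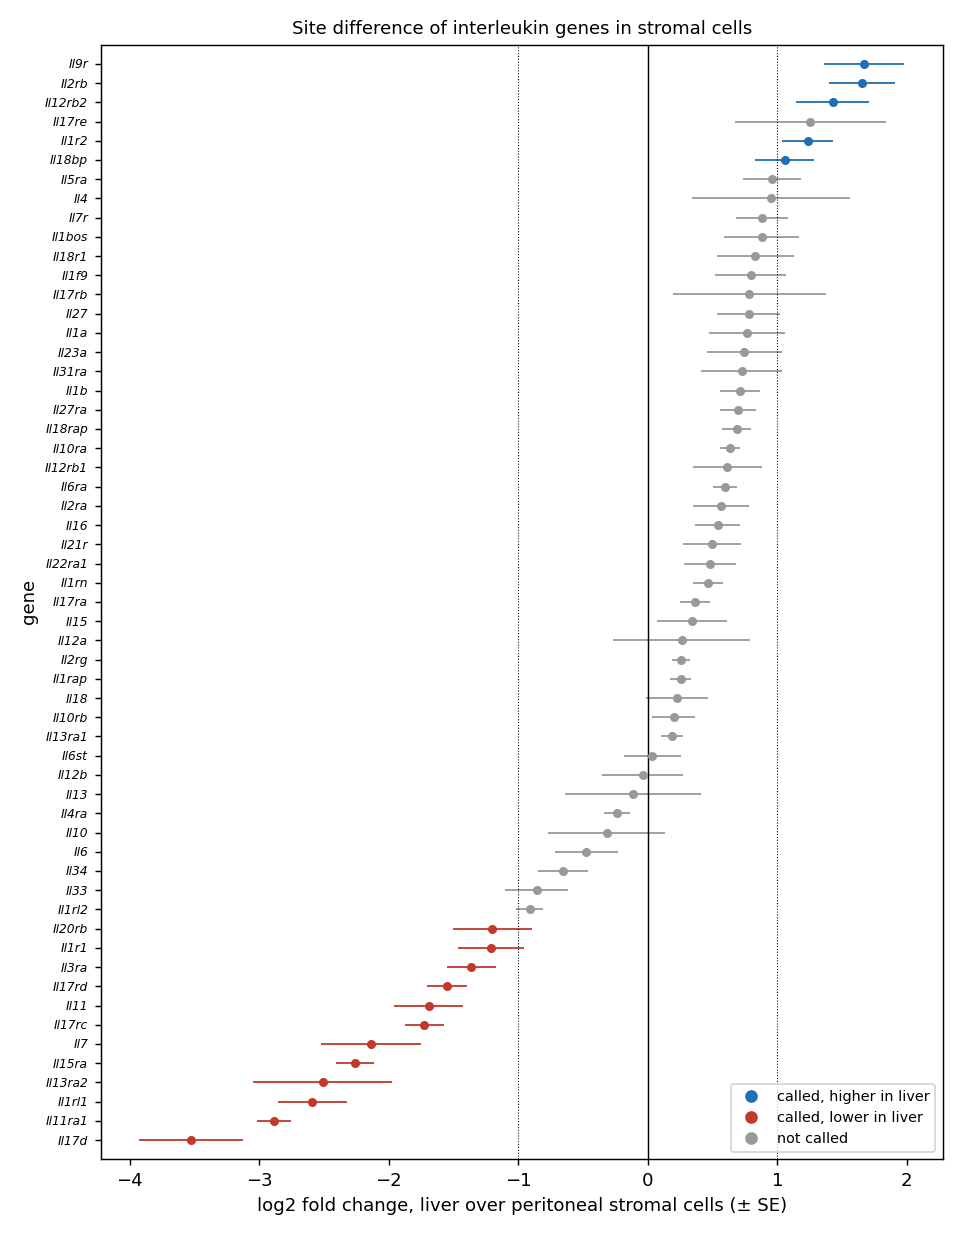
Log2 fold change of liver over peritoneal stromal cells for the 57 interleukin genes tested, with standard errors. Dotted lines mark the fold threshold at 1 and -1. Most genes lie to the right of 0, whereas the 12 called lower reach further, to -3.52 for Il17d, which has few counts in liver stroma.

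With lane as a term 16 genes were called in the stroma, the same less Il18bp, and the mouse as a block called 17. The peritoneal stromal library of mouse 1, with its neutrophil genes, was the highest of its group for Il10, at 30.5 CPM against 5.97, 6.78 and 14.3 CPM. Of the 37 signalling genes 2 were called higher in liver stroma and 3 lower. Csf2rb2 was at 597 against 237 CPM (log2 1.22, SE 0.14, adjusted p = 1.55e-04, edgeR) and Csf2rb was also higher, while Osmr and Tslp were among those lower. Osmr was at 41.0, 72.1, 48.8 and 37.2 CPM in liver and at 104, 178, 133 and 130 CPM in peritoneal stroma.

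Whether the site difference itself differed between stromal and tumour cells was tested as an interaction over the 16 sorted libraries. Of 58 interleukin genes tested 15 were called, where 10.6% of all genes tested were, and 9 of these had an adjusted p under 0.05. For Il11ra1 the liver minus peritoneum difference was more negative in stromal than in tumour cells by 2.54 on the log2 scale (SE 0.24, adjusted p = 1.11e-05, edgeR): tumour cells of both sites were at 3.68 to 6.72 CPM, level with liver stroma, and peritoneal stroma stood alone. The interaction was likewise negative for Il1rl1 (-2.20, SE 0.59), Il11 (-2.03, SE 0.42), Il33 (-1.77, SE 0.48), Il17rd (-1.45, SE 0.22), Il1r1 (-1.31, SE 0.38) and Il17rc (-1.07, SE 0.22), and positive for Il15 (1.73, SE 0.51) and Il22ra1 (1.02, SE 0.24). Under the fold threshold, Il3ra (-0.91, SE 0.23), Il6ra (0.89, SE 0.17) and Il2rg (0.69, SE 0.21) also had an adjusted p under 0.05. For Il33 the 2 compartments moved apart, with means of 420 and 220 CPM in liver and peritoneal tumour cells and of 139 and 231 CPM in the matching stroma. The Il22ra1 value lies at the fold threshold and fell below 1 in 8 of the 16 fits that each left out 1 library, as far as 0.80 without peritoneal tumour cell library 1.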

How the data were processed

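RNA-seq libraries from 9 BMEL cultures and 16 sorted cell samples were analysed from the gene count table the authors deposited, which holds whole-number counts per gene without normalization. The authors aligned reads to mm9 with TopHat2, whereas the submitters' processing notes name FastQC, Bowtie 0.12.2 and the builds mm8 and mm10. The counting program, its annotation and its use of strand are not given in the sources used here. No per-sample column was left out (0 unused). Total counts ran from 20818989 to 51241336, correlations within groups from 0.984 to 0.998, and no pair of libraries was identical. The level of 3 counts is 0.0585 to 0.144 CPM. This floor and the counting intervals, exact at 95%, cover counting error only.

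Groups, replicates and mice followed the labels. Genes passed filterByExpr (minimum count 10), and comparisons used TMM and the quasi-likelihood test of edgeR 4.0.16 (limma 3.58.1, R 4.3.3) on the libraries of the groups compared, with DESeq2 1.42.0, RLE normalization, no filter, adjusted p-values (Benjamini-Hochberg), 1 fit of all libraries, blocks, lanes and leaving out each library as alternatives. Standard errors are the absolute log2 fold change over the root of F. Cultured cells were called past a log2 fold change of 1.5 with p under 0.01, sorted cells and the interaction past 1 with p under 0.05. The paper calls the cell line samples independent but does not say how they were obtained, so p-values measure the spread between these samples. The script was tested on simulated counts.

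Full values were given to called genes with a mean of at least 1 CPM in a group of the comparison, up to the 10 with the largest change in each, and to their ligands or receptors. Il5ra, Il33, Il34, Il1r1 and Il15 in culture, the genes higher in tumour than in stromal cells, and those searched for motifs were chosen after their values were seen. The counts over the 37 signalling genes include 1 gene that is not reported here by name. Members and lists were chosen with earlier results of these data known. Mouse numbers pair the sorted samples, which came from the same animal. For liver tumour and stromal cells the correlation of paired deviations over genes was 0.125 to 0.309. Exon lengths came from GENCODE vM1 on NCBIM37, the assembly of mm9, where 84 of 84 genes matched. Promoters came from RefSeq on GRCm38.p6, which holds 67 of the 84.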

Additional observations from a re-analysis of the deposited data

Results flagged for a closer look

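Among 93 group values with a mean of at least 1 CPM, 8 had a single library standing apart from the 3 others by Dixon's ratio. The mean included the library standing apart, so a high library could itself bring a group into the test. This was so for Il10ra, Il1a and Il6 below, which were under 1 CPM in the other libraries of their group. The number flagged is therefore not set against a rate expected by chance. Of the 8, 4 lay in the peritoneal tumour cell library of mouse 1, which had 4.49 CPM of Il10ra, 5.58 CPM of Il1a, 38.0 CPM of Il1b and 3.38 CPM of Il6, while the medians of the other 3 libraries were 0.377, 0.566, 3.47 and 0.254 CPM. The same library had 54.3 CPM over the 4 leukocyte markers, and the part of leukocyte RNA in these values was not tested. The peritoneal stromal library of mouse 1 had 34.9 CPM of Il16 and 1.58 CPM of Il17d against medians of 22.5 and 0.951 CPM. Il5ra was at 192 CPM in the liver tumour cell library of mouse 1 against a median of 99.4 CPM, and Il9r at 4.21 CPM in the liver stromal library of mouse 4 against 2.23 CPM.

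In 12 genes the liver minus peritoneum difference itself differed between stromal and tumour cells, by the interaction test of edgeR with an adjusted p under 0.05. The stromal minus tumour value of that log2 difference was -2.54 for Il11ra1, -2.20 for Il1rl1, -2.03 for Il11, -1.77 for Il33, -1.45 for Il17rd, -1.31 for Il1r1 and -1.07 for Il17rc, and it was 1.73 for Il15 and 1.02 for Il22ra1. It was within the fold threshold of 1 for Il3ra (-0.91), Il6ra (0.89) and Il2rg (0.69).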

How the results depend on the processing

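No named value reversed: of 896 values of 60 named changes under the alternatives, 863 kept their side of the threshold and 33 lost it, most of them Il18 and Il18rap in RasLOW, Il12rb1 in tumour cells and the Il22ra1 interaction. All 60 had passed the threshold in the main fit, so they could lose it but not gain it, and the alternatives reuse the same libraries. Genes that missed it, such as Il5ra in culture, are not among the 60. Depth limits Il7, Il18 and Il34 in culture and Il17d in liver stroma, which rest on few counts. Counts of calls moved more in small lists, for causes that were not tested. For RasLOW against BMEL WT the 3 calls became 1 with adjusted p-values, 6 with all 25 libraries in 1 fit and 1 to 5 without single libraries. For RasHIGH against BMEL WT the 5 became 9 in the fit of all libraries and 6 to 9 without single libraries. Between the Ras populations the 2 became 4 with DESeq2, 4 without a filter, 0 with adjusted p-values (edgeR, with 7 genes at an unadjusted p under 0.05), 6 in the fit of all libraries and 1 to 3 without single libraries. For tumour cells by site the 1 became 2 with DESeq2, 2 without a filter, 0 with adjusted p-values (6 genes at an unadjusted p under 0.05), 6 in the fit of all libraries, 2 with the mouse as a replicate block and 1 to 6 without single libraries. The 15 interaction calls became 9 with adjusted p-values. The mouse block gave 17 calls for stroma by site, 50 for tumour against stroma in the liver, 46 in the peritoneum and 15 for the interaction. The replicate numbers of the cultures share no stated origin, and as a replicate block they gave 4, 5 and 2 calls in the 3 comparisons, with correlations of same-numbered deviations from -0.69 to 0.36.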
